A study of Homo sapiens with 10 samples.

Results

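The genes described here are the protein-coding genes on human autosomes whose symbols start with PRAMEF, USP17L, POTE, TBC1D3, NPIP, NBPF or SPDYE, 7 families that segmental duplication multiplied in the primate lineage. The rule found 128 of 19126 autosomal protein-coding genes in the RefSeq table of GRCh38.p14. Of these, 127 were taken to have a position on an assembled chromosome and were measured. PRAMEF22 was not measured, because its position was inferred from the order of the entries to lie on another sequence. The prefix TBC1D3 also takes in TBC1D30, TBC1D31 and TBC1D32, which belong to the wider group of TBC1 domain genes, are not copies of TBC1D3 and lie on other chromosomes. They are members by the rule, and the main counts are given with and without them. The other 124 are called family copies below.

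The study used CUT&RUN, in which an antibody directs a nuclease to cut out the DNA around its target, in BJ foreskin fibroblasts of human origin, and its labels describe 10 samples in 4 groups. An antibody to H3K9me3, the heterochromatin mark on lysine 9 of histone H3, was used on 3 samples with a non-targeting siRNA and on 3 with an siRNA against ERH, a small conserved nuclear protein. An antibody to the transcription factor SOX2 was used on 2 samples with each siRNA, collected 48 hours after infection with Sendai virus expressing OCT4, SOX2, KLF4 and c-MYC. Cells were transfected in 2 rounds, 3 days apart, at 5 nM siRNA by the labels' protocol, and every sample is of the same cell line. The values below come from 1 list of 10536 H3K9me3 regions, merged by the authors over the 3 samples with ERH siRNA. The control H3K9me3 samples and the SOX2 samples were not analysed here, so nothing below says what the knockdown changed. The list holds no reads and no columns per sample, so depth is unknown, no value has a replicate error, and no test between conditions was possible. A region in a gene says that H3K9me3 was called there in knockdown cells. The absence of a region says only that none is in the list. Of the listed regions, 6 are split into pieces, 5 of them over more than 1 chromosome, and whether coordinates were converted from another build is not stated. A conversion can drop regions in duplicated sequence, and its part in the counts below was not tested.

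Heterochromatin with H3K9me3 is known for holding tandem arrays, transposable elements and germline genes silent in somatic cells. Genes of segmental duplications arose by copying long stretches of a chromosome, so copies in a family can be nearly identical in introns, exons and promoters. Short reads from such copies can fit several places in the genome. How reads that fit several places were handled is not given in the sources used here, and its part in the counts below was not tested.

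No family copy overlapped a region. Of the 127 members measured, 2 shared at least 1 bp with a region (1.57%, Wilson 95% interval up to 5.56%), and both were among the 3 genes that are not copies of TBC1D3, TBC1D30 and TBC1D32. Of the 124 family copies, 0 did, which allows a share of up to 2.42%. Over all 18973 autosomal protein-coding genes with a position, 2080 overlapped a region, or 11.0%. By bases, 0.40% of the 3.03 Mb of member gene bodies lay in regions, and 0% of the 2.56 Mb of family copies, against 1.13% of all autosomal protein-coding gene bodies. These limits and intervals cover counting error only, and copies in a cluster are not independent, so they are too narrow.

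**Figure D1:**
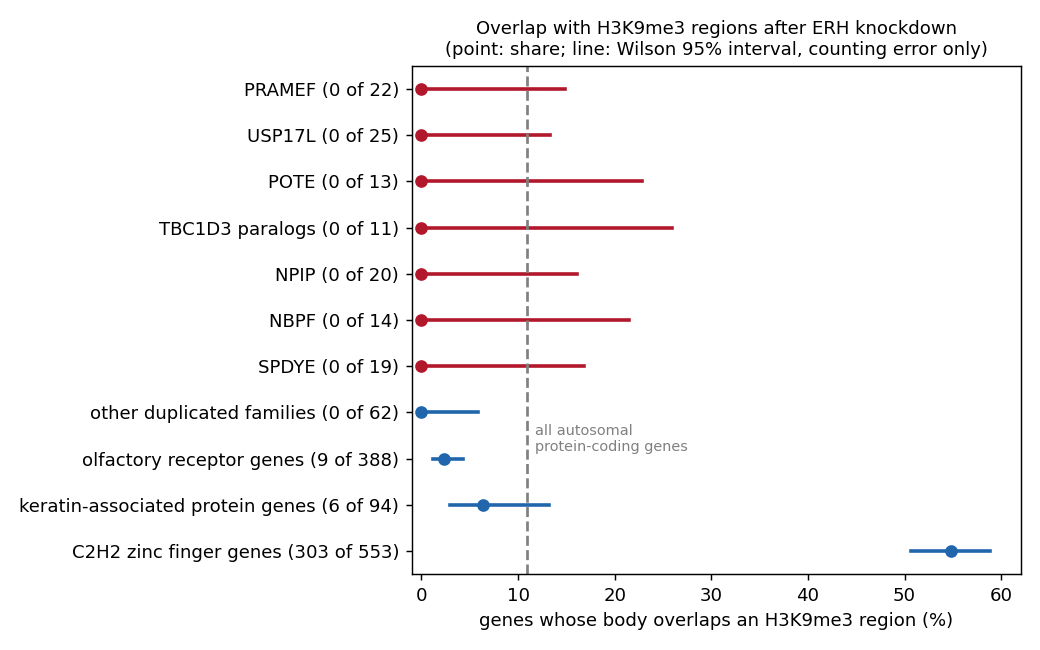
Share of genes whose body overlaps an H3K9me3 region, with its Wilson 95% interval, for the 7 families (red) and 4 compared gene groups (blue); the dashed line is the share over all autosomal protein-coding genes. Each family sits at 0%, with TBC1D30, TBC1D31 and TBC1D32 left out, whereas 303 of 553 zinc finger genes overlapped a region. The upper ends of the family intervals run from 13.3% (USP17L) to 25.9% (TBC1D3 copies). All lie above the dashed line at 11.0%, so this count tells no single family from all genes.

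Gene length bears on this count, because a long gene meets a region more often than a short one. Among all autosomal protein-coding genes, the share with a region was 0.55% for those under 5 kb, 2.67% from 5 to 20 kb, 9.79% from 20 to 100 kb and 37.3% over 100 kb. The family copies are mostly short. The under 5 kb class held 32 of them and the 5 to 20 kb class 51, and in both classes the background share lies below what 0 counts allow, 9.38% and 5.88%. The 39 copies from 20 to 100 kb, chiefly NBPF, POTE and NPIP genes, also had 0, which allows up to 7.69% against the background of 9.79%. That background includes zinc finger genes, of which 54.8% overlapped a region. The share with only zinc finger genes left out is not given here. Among other genes of this length whose promoter window shares no 31-base stretch with another gene's, 407 of 5546 (7.34%) overlapped a region. This set also lacks genes without a window or with any shared stretch, and it holds 5 members. Its share lies below 7.69%, so the count does not tell these copies from that set. The 2 copies over 100 kb, NBPF20 (136 kb) and NBPF26 (118 kb), had none either.

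The distance to the nearest region also fell with length, with medians over all genes of 156, 152, 123 and 33.7 kb in the 4 classes from short to long. The median over family copies was 238 kb, with quartiles of 161 and 475 kb, against a median of 122 kb and quartiles of 32.1 and 278 kb over all autosomal protein-coding genes. Beyond 100 kb from any region lay 105 of 124 copies (84.7%, against 54.9% of all genes), and beyond 500 kb lay 29 (23.4%, against 10.0%). For family copies the medians were 207 kb under 5 kb, 279 kb from 5 to 20 kb and 304 kb from 20 to 100 kb. The 2 copies over 100 kb had a median of 795 kb. Each lies above the median of all genes, in which a gene with a region counts as distance 0. No copy has a region, and all genes without one had medians of 156, 158, 146 and 119 kb in the 4 classes. The copies fall into 43 loci when genes within 500 kb are joined, so their distances are far fewer than 124 separate measurements, and the difference was not tested.

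**Figure D2:**
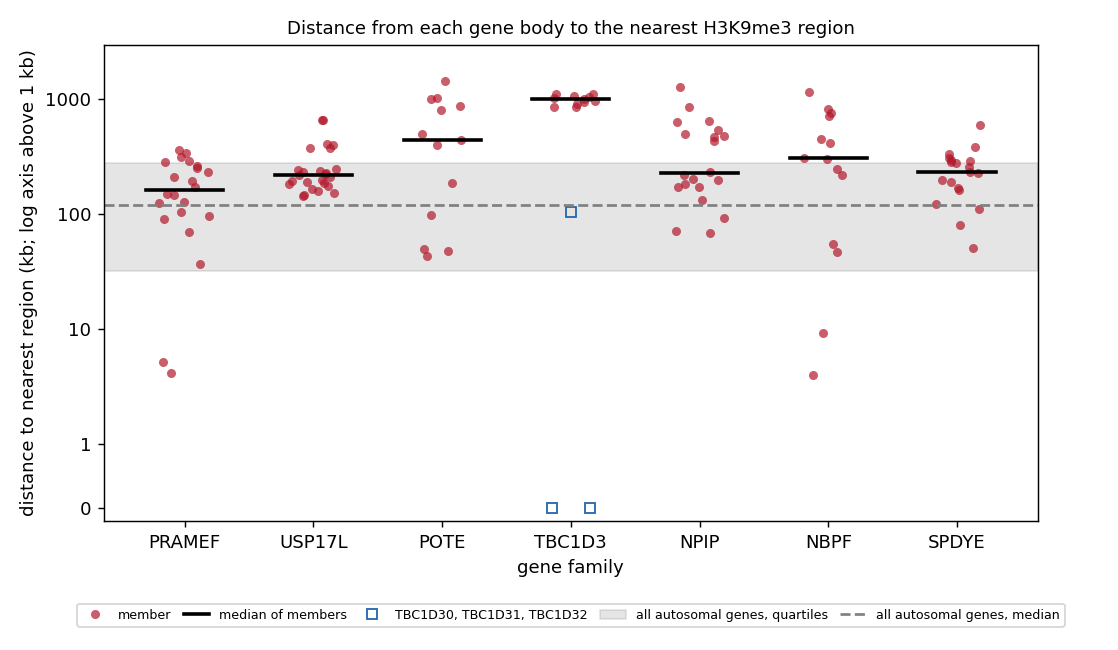
Distance in kb from each member's gene body to the nearest region (log axis above 1 kb), by family, with the median of the family copies (black bar) and the quartiles and median of all autosomal protein-coding genes (grey). Most copies lie above the grey median of 122 kb; the low points are PRAMEF12, PRAMEF1, NBPF15 and NBPF9, and only TBC1D30 and TBC1D32 are at 0.

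PRAMEF genes encode leucine-rich repeat proteins related to the tumour antigen PRAME and are known for expression in the germline and early embryo. The 22 placed copies form 1 cluster of 648 kb on chromosome 1, at 12773738 to 13421328. A single region lay within the cluster, at 12783105 to 12787198 (4094 bp), between genes. It lay 5199 bp after the end of PRAMEF12 and 4199 bp before PRAMEF1, and overlapped no protein-coding gene. Its score of 33971, the authors' value without a stated unit, was at the 71.6th percentile of the list. The other 20 copies followed in a region-free stretch of 732 kb that ended at 13518987, and the copy farthest from a region was PRAMEF26, at 362 kb. In the 13 other protein-coding genes within 500 kb of a PRAMEF copy, 2 overlapped a region (15.4%), CFAP107 and KAZN, against 7.47% of all protein-coding genes on chromosome 1. The relative PRAME, on chromosome 22, had no region in its body and lay 36.2 kb from the nearest.

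The starts of PRAMEF12 and PRAMEF1 are shown because these genes flank the only region of the cluster and differ from each other more than many copies do. The windows run from 250 bases before to 50 after the start in the RefSeq promoter table (GRCh38.p14), at chr1:12773488-12773787 and chr1:12791147-12791446, both on the plus strand. Capitals mark CpG dinucleotides, the letters CG, which read the same on both strands.
PRAMEF12: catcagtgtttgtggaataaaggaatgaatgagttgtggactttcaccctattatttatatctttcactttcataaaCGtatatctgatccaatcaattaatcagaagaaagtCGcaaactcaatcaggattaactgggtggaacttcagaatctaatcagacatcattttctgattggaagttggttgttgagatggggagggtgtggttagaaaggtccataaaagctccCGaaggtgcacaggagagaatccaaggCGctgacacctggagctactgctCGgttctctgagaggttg
PRAMEF1: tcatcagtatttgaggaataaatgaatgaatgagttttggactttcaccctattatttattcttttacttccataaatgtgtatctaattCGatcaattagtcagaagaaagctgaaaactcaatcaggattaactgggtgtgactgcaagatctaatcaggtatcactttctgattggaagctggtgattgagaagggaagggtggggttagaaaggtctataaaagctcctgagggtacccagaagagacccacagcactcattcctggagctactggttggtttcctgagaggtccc
The windows are 82.7% identical by global alignment, with 5 CpG in PRAMEF12 and 1 in PRAMEF1. PRAMEF12 shared none of its 31-base stretches with another gene's window, whereas PRAMEF1 shared 86.3% of them and was 97.3% identical to PRAMEF13.

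USP17L genes encode deubiquitinating enzymes of the DUB/USP17 group, most without introns. The 19 copies on chromosome 4 stand in a tandem array at 9210657 to 9364721, with a median spacing of 4.75 kb from start to start, and 18 of them are 1593 bp long. The array lay in a region-free stretch of 510 kb, 144 kb after the region at 9061774 to 9066389 and 212 kb before the next. USP17L10, at the array's edge, was the nearest copy at 144 kb. The 6 copies on chromosome 8 lay farther away, between 376 kb for USP17L3 and 663 kb for USP17L4. Of the 66 other protein-coding genes within 500 kb of a USP17L copy, 1 overlapped a region (1.52%). Their median length was 3.01 kb, and the shares over all genes were 13.7% on chromosome 4 and 11.5% on chromosome 8. The 25 gene bodies make up 40.8 kb in all, and in the class under 5 kb only 0.55% of all genes overlapped a region. Of the relatives, USP32 had no region and lay 472 kb from the nearest, and USP6, a fusion of USP32-like and TBC1D3-like sequence, had none and lay 2.59 kb away.

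TBC1D3 genes encode proteins with a TBC domain, found in GTPase-activating proteins of Rab GTPases, and are a hominoid family. The 11 copies lie in 2 clusters on chromosome 17, 5 from 36165683 to 36439521 and 6 from 37923536 to 38192555. No region was called within or between the clusters. Both sit in 1 region-free stretch of 3.74 Mb, from the region at 35296872 to 35305803 to the region at 39044405 to 39049905. Only 17 of the 10351 autosomal gaps between neighbouring regions were longer than 3 Mb, and the median gap was 123 kb. Counted by gene, autosomal protein-coding genes with no region sat in stretches with a median of 0.75 Mb, 33.8% of them over 1 Mb. The nearest copy to a region was TBC1D3 itself, at 852 kb, and the farthest TBC1D3F, at 1123 kb. Other genes lie in the stretch, and none of the 39 other protein-coding genes within 500 kb of a TBC1D3 copy overlapped a region either, on a chromosome where 5.36% of protein-coding genes did. These neighbours had a median length of 12.6 kb, and 2.67% of all genes from 5 to 20 kb overlapped a region.

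Of the other TBC1 domain genes that the prefix takes in, TBC1D30 and TBC1D32 held regions. TBC1D32, which acts in cilium-dependent signalling and spans 255 kb of chromosome 6, held 3 regions, at 121122869 to 121125503, 121150444 to 121153766 and 121262790 to 121265578, covering 3.43% of its body. Their scores were at the 21.9th, 69.5th and 15.6th percentile of the list. TBC1D30, spanning 122 kb of chromosome 12, held 1 region, at 64773828 to 64777296, covering 2.85% of its body, with a score at the 52.5th percentile. TBC1D31, 92.5 kb long, had none, and its nearest region was 105 kb away. Both genes with a region are over 100 kb long, a class in which 37.3% of all genes overlapped a region.

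Promoter windows of a TBC1D3 copy from each cluster and of TBC1D32 are shown to compare near-identical copies with a more distant TBC1 domain gene. TBC1D3 is at chr17:38192506-38192805, TBC1D3H at chr17:36388386-36388685 and TBC1D32 at chr6:121334680-121334979, all on the minus strand and written in the direction of the gene, with CpG in capitals.
TBC1D3: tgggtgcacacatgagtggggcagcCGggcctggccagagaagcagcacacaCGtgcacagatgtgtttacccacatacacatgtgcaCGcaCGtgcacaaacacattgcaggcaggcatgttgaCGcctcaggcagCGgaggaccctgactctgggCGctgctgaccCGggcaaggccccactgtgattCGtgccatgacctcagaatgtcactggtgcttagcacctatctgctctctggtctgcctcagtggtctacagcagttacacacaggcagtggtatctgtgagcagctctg
TBC1D3H: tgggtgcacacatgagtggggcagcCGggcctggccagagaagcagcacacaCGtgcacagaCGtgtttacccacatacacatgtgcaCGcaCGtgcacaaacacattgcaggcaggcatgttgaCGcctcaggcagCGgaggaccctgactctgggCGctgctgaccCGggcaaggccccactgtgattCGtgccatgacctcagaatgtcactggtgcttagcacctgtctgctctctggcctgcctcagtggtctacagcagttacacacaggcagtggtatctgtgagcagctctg
TBC1D32: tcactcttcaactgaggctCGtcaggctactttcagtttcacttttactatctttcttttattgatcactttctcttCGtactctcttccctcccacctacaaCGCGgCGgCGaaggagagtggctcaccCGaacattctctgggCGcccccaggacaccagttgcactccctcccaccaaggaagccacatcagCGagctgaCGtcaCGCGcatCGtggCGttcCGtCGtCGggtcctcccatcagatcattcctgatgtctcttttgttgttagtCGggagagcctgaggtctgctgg
The windows of TBC1D3 and TBC1D3H, from clusters over 1 Mb apart, differ by 3 edits in 300 bases (99.0% identity). TBC1D32 was 46.3% identical to either, within the 44.3 to 47.3% found between the PRAMEF12 and PRAMEF1 windows and these 3.

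**Figure D3:**
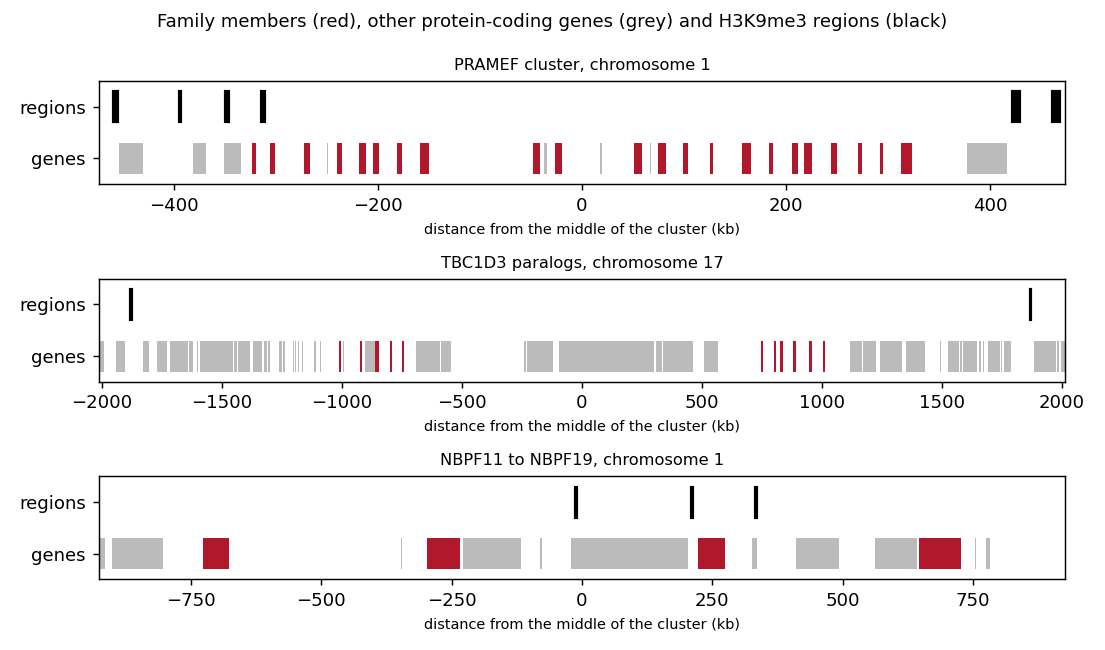
Maps of 3 clusters, with distance in kb from the middle of the cluster on the x axis, family members in red, other protein-coding genes in grey and regions in black; regions narrower than the line are drawn at line width. Regions lie between or outside the red genes: 1 in the PRAMEF cluster, none in the 3.74 Mb stretch of the TBC1D3 copies, and 3 between NBPF11 and NBPF19.

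NBPF genes encode repeated Olduvai domains (formerly DUF1220), whose copy number grew in the human lineage. The 14 copies are on chromosome 1, from NBPF1 at 16562423 to NBPF19, which ends at 149556361, and are the longest family, with a median body of 53.0 kb. NBPF15 had the nearest region of all family copies, at 144465715 to 144467889 (2175 bp). It lay 4.05 kb upstream of the start of the gene, which is on the minus strand. That region's score was low, at percentile 10.2 of the list. NBPF9 lay 9.29 kb from a region at 149039158 to 149042898, which sits between it and PDE4DIP, a phosphodiesterase-interacting gene related to the family. PDE4DIP was the only gene among the 7 less amplified relatives to hold a region, at 148815840 to 148818907, over 1.37% of its 225 kb. A further region lay between NBPF9 and NBPF19, at 149161247 to 149165485. Away from these the stretches were long: NBPF10, NBPF12 and NBPF20 share a region-free stretch of 2.83 Mb, and NBPF10, at 1156 kb, was the farthest copy. In the 104 other protein-coding genes within 500 kb of an NBPF copy, 4 overlapped a region (3.85%), against 7.47% on the whole of chromosome 1. Their median length was 18.1 kb, and 2.67% of all genes from 5 to 20 kb overlapped a region.

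NPIP genes encode the nuclear pore complex interacting proteins and are the core of duplication blocks on chromosome 16 that show strong signs of selection in apes. The 20 copies lie between 11927263 and 74392115, none within 50 kb of a region. The nearest was NPIPB8, 69.5 kb from a region at 28565939 to 28568343 that lies in SGF29, and the farthest NPIPB3, at 1286 kb. NPIPA8, NPIPA9, NPIPB3, NPIPB4 and NPIPB5 share a region-free stretch of 4.89 Mb, from 17817363 to 22711057, the longest that holds a family copy. Genes next to NPIP copies did hold regions. Among the 138 other protein-coding genes within 500 kb, 9 overlapped a region (6.52%), among them MYH11, a smooth muscle myosin, and the transporter genes ABCC1 and ABCC6. On the whole of chromosome 16 the share was 7.22%.

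SPDYE genes encode Speedy/RINGO proteins, which bind and activate cyclin-dependent kinases. Of the 19 copies, 18 lie on chromosome 7 and SPDYE4 on chromosome 17. SPDYE4 was the nearest to a region, at 51.2 kb, and SPDYE6 the farthest, at 597 kb. Within the locus of SPDYE16, SPDYE17 and SPDYE18, 3 regions of 1543, 4077 and 2607 bp lay between SPDYE16 and SPDYE17, at 162 kb or more from either, and their scores were all below the list's median. Of the 143 other protein-coding genes within 500 kb of a SPDYE copy, 15 overlapped a region (10.5%), including GTF2I, TYW1 and TYW1B, and the share on chromosome 7 was 13.9%. The relatives SPDYA and SPDYC, which were not amplified, had none and lay 228 and 563 kb away.

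POTE genes encode ankyrin-repeat proteins expressed in prostate, ovary, testis and placenta, some carrying an actin sequence, and several lie next to centromeres. The 13 copies are spread over 7 chromosomes, and their distances ranged from 43.7 kb for POTEH to 1458 kb for POTEB. The region next to POTEH, at 15765318 to 15765377 of chromosome 22, is a piece of 60 bp of a region that the list splits over 3 chromosomes. Without split regions the nearest was 55.7 kb away. POTEA on chromosome 8 lay 49989 bp from a region of 4779 bp whose score was at the 99.7th percentile. POTED lay 48.3 kb from a region with a score at percentile 9.80. On chromosome 14, 2 regions lay between POTEM and POTEG, the nearer of them 98.9 kb from POTEG. On chromosome 2, POTEE, POTEF, POTEI and POTEJ share a region-free stretch of 2.50 Mb, and on chromosome 15 the 3 POTEB copies share 3.61 Mb. Of the 46 other protein-coding genes within 500 kb of a POTE copy, 6 overlapped a region (13.0%). Over the 7 chromosomes the share of all protein-coding genes ran from 7.52% (chromosome 22) to 14.2% (chromosome 18). ANKRD26, the relative from which the family is thought to derive, had no region and lay 488 kb away.

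Around the gene bodies, regions were few but present. Within the 43 loci of the family copies, from the first to the last gene of each, 10 regions in 5 loci covered 32.6 kb of 9.26 Mb (0.35%), against 1.76% of the autosomal span. The loci include the 2.56 Mb of the copies' own bodies, where no region lies, so 0.35% is not a share of the surroundings alone. The 10 regions had a median length of 3406 bp and a median score of 25312, against 3530 bp and 24180 for the whole list, so those present were of usual size. Extending each gene by 5 kb on both sides brought in PRAMEF1 and NBPF15, so that 4 of the 127 members, and 2 of the 124 family copies, had a region in or within 5 kb of the gene, against 13.0% of all genes. Of 549 other protein-coding genes within 500 kb of a family copy, 37 overlapped a region, or 6.74% (Wilson 95% interval 4.93 to 9.15%). Their median length of 14.8 kb is shorter than the 24.8 kb of all autosomal protein-coding genes. The shares of neighbours and of chromosomes given by family above are not matched for length. Copies with no region sat in stretches with a median of 0.84 Mb between the flanking regions, and 52 of 124 (41.9%) in stretches over 1 Mb. For all autosomal genes with no region the values were 0.75 Mb and 33.8%. The 124 copies occupy only 41 different stretches.

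The families also have pseudogenes, copies that no longer encode a protein. The table places 41 pseudogene and non-coding entries with these prefixes on autosomes, and 0 overlapped a region, which allows up to 7.32%. Over all 32857 autosomal entries of the same types the share was 5.76%, below that limit. By length it was 2.02% under 5 kb, 4.02% from 5 to 20 kb and 15.2% from 20 to 100 kb, classes that hold 15, 21 and 5 of the family entries, so this count does not tell the entries from the background. The nearest was TBC1D3P7, 1.82 kb from a region on chromosome 17 at 41319162 to 41321608. SPDYE19P and SPDYE20P followed at 10.8 and 14.7 kb, and the median was 201 kb.

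Compared gene groups differed widely. A list of other duplicated families (GOLGA6, GOLGA8, LRRC37, RGPD, ANKRD20A and FAM90A) also had 0 of 62 genes with a region, which allows up to 4.84%, at a median distance of 529 kb. Their median length is 11.5 kb, from 3.01 to 676 kb, and the count was not matched for length. From 5 to 20 kb, 2.67% of all genes overlapped a region, which is below 4.84%. The list also holds longer genes, with medians of 97.1 kb for the 7 RGPD genes and 77.55 kb for the 4 LRRC37 genes. From 20 to 100 kb the share of all genes was 9.79%, above 4.84%. The limit therefore cannot be set against 1 length class. Olfactory receptor genes had 9 of 388 (2.32%), with a median length of 3.04 kb and a median distance of 110 kb. Keratin-associated protein genes had 6 of 94 (6.38%), at a median distance of 21.3 kb although their median length is 0.83 kb. C2H2 zinc finger genes, which are also clustered and duplicated, had 303 of 553 (54.8%). No test was made between these groups, whose genes differ in length and share clusters.

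A promoter window was found in the table for 82 of the 127 members (81 of the family copies), none of them a USP17L gene. The share of 31-base stretches that a window has in common with a window of another gene elsewhere in the genome was chosen as the measure after the counts above were seen. The other gene may be of any family, so this measure is not one of likeness within a family. Over 50% of these stretches were shared in 61 of the 82 member windows, with a median of 79.6%. By family the median ran from 66.5% for NBPF to 100% for the TBC1D3 copies. Within a family the best match was at least 95% identical for 40 windows, and 9 windows were identical to another copy's, such as POTEG and POTEM, SPDYE2 and SPDYE2B, and TBC1D3 and TBC1D3L. Other windows were far less alike. The median identity of the best match ran from 54.0% for NPIP and 75.7% for NBPF to 99.0% for SPDYE. None of the 82 starts lay in a region, against 21 of 15101 starts (0.14%) among all autosomal protein-coding genes with a window.

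The same measure was taken over all genes. Of 311 autosomal protein-coding genes that shared over 50% of their window, 1 overlapped a region, or 0.32% (Wilson 95% interval 0.06 to 1.80%). Of 14330 that shared none, 1635 did, or 11.4% (10.9 to 11.9%). Genes with shared windows include copies in the same cluster, which are not independent. The intervals here and below cover counting error only and are too narrow. Of the 311 genes, 61 are members and 250 are not, and 1 of the 250 overlapped (0.40%). That gene was FRG2C on chromosome 3, named after its value was seen, 2.85 kb long and covered over 65.4%. Genes with shared windows are shorter, with a median of 10.05 kb against 27.02 kb, so the contrast was also taken within classes of length. From 20 to 100 kb, with zinc finger genes left out, 0 of 65 genes with shared windows overlapped a region (Wilson 95% interval up to 5.58%) against 407 of 5546 (7.34%) with none shared. Of the 65, 20 are members, whose counts of 0 were known before the measure was chosen. Without members it was 0 of 45 (up to 7.87%) against 407 of 5541 (7.35%), a share that the interval includes. From 5 to 20 kb it was 0 of 139 (up to 2.69%) against 43 of 3911 (1.10%), and 38 of the 139 are members. Under 5 kb it was 1 of 99 against 7 of 1907 (1.01% and 0.37%), where the order is the other way and rests on FRG2C alone. Lower levels of sharing were not compared within classes of length. Of 460 genes that shared some stretches but at most 50%, 90 overlapped a region (19.6%), and 54 of these 90 were zinc finger genes. Without zinc finger genes it was 36 of 395 (9.11%), against 10.3% where none was shared. The 395 genes had a median length of 9.58 kb, against 27.4 kb where none was shared. These shares therefore cannot tell whether the contrast holds at lower levels of sharing. What reads that fit several copies contribute to this relation was not tested.

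**Figure D4:**
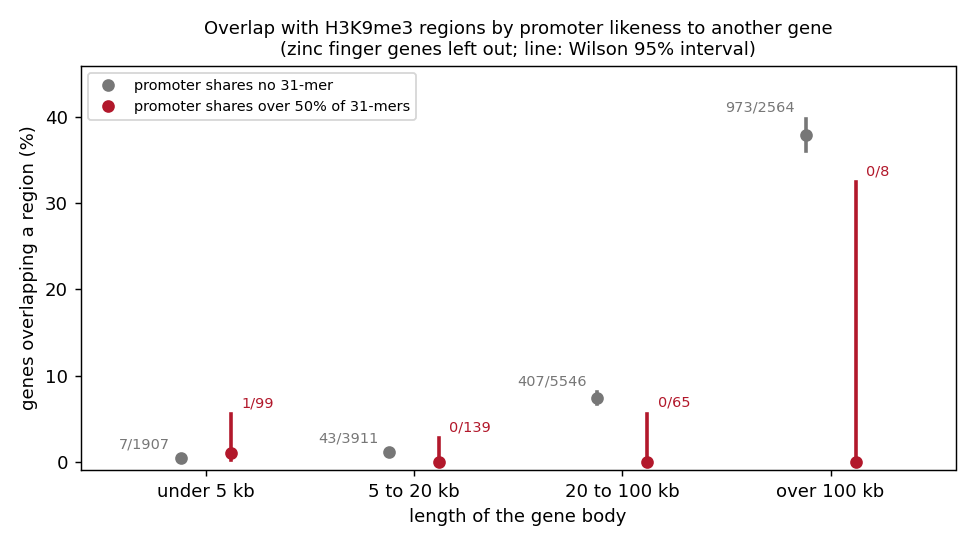
Share of genes overlapping a region by class of gene length, for genes whose promoter window shares no 31-base stretch with another gene (grey) and genes that share over 50% (red), zinc finger genes left out, with Wilson 95% intervals and counts. Above 20 kb the red points are at 0 of 65 and 0 of 8, beside 7.34% and 37.9% in grey; below 20 kb both are at 1.10% or less. The intervals cover counting error only and are too narrow, because copies in a cluster are not independent.

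CpG content was lower in member windows. The median member window held 5.5 CpG and 49.2% G and C (5.0 and 49.0% without TBC1D32), against 22 CpG and 62.7% over all 15101 genes. At least 1 CpG was present in 81 member windows and in 98.1% of all windows. PRAMEF windows were the poorest, with a median of 2.5 CpG and a range of 0 to 5. NBPF windows had a median of 17.5, from 2 to 26, and NPIPB2 had the most of any member, 43. The 1 member with both a window and a region, TBC1D32, had 18 CpG, within the range of the members that had none.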

How the data were processed

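CUT&RUN libraries for H3K9me3 and SOX2 were made from BJ fibroblasts, per the labels' protocols. The submitters' processing notes name the hg38 build and the tools Bowtie2 2.3.4.1, SAMtools 1.16.1, SEACR 1.3, bedtools 2.27.1, deepTools 3.5.0 and R 3.6.3, without roles. The peak threshold, the control library, the merging of replicates and the handling of reads that fit several places are not given in the sources used here. The authors deposited 1 list of regions with a whole-number score of unstated unit, used here only to rank and describe regions. A column of other values numbers the pieces of split regions: 6 regions are split into 23 rows, 5 of them over more than 1 chromosome. Whether coordinates were converted from another build is not stated.

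Genes, positions and promoter windows came from RefSeq tables (GRCh38.p14). Entries listed after a chromosome's own sorted block were taken to carry positions on patches or other sequences. They were left out (153 of 19126 autosomal protein-coding genes). Overlap means at least 1 shared bp, and distance runs from gene body to region edge. Loci join members within 500 kb. Window likeness used stretches of 31 bases on either strand, against windows of other genes on another chromosome or over 1 kb away, and identity is 1 minus the edit distance over 300 bases. Shares have Wilson 95% intervals, and beside 0 stands the limit of 3 counts. Python 3.11.15, numpy 2.4.6, pandas 2.3.3, scipy 1.17.1, python-edlib 1.3.9.post1 and matplotlib 3.10.9 were used. Covered bases and distances were tested on simulated data, with 0 of 500 wrong in each.

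The members, compared lists and alternatives were chosen with earlier results of these data known. Named genes are, per family, the overlapping members, the nearest and the farthest member without a region, and the listed relatives; others named within loci were chosen after their values were seen.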

Additional observations from a re-analysis of the deposited data

How the results depend on the processing

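Of 83 values computed under alternatives, 30 could not move by construction, because a family already at 0 was left out or had regions taken away. Of the other 53, 35 stayed within the interval of the reported value or, for counts, within 1.5 times it. The intervals were 0.396 to 0.410% for the covered share and 201 to 291 kb for the median distance. They treat each base or each member as independent and are too narrow, so staying within them measures no replicate error. The count of 2 overlapping members became 4 with genes extended by 5 kb, and 0 with at least 10% of the body covered, without the TBC1D3 family, or without TBC1D30, TBC1D31 and TBC1D32 (an alternative added with the values known). The covered share of 0.40% became 0.22% with the regions scoring at least the median, 0.34% with genes extended by 5 kb, 0.35% with pseudogene and non-coding entries, and 0% without the TBC1D3 family or without those 3 genes. Leaving out another family gave 0.42% (PRAMEF), 0.49% (POTE), 0.47% (NPIP), 0.58% (NBPF) and 0.45% (SPDYE), by construction, since the covered bases stay and the total shrinks. The median distance of 236 kb over all members became 402 kb with the regions scoring at least the median, where fewer regions remain, and stayed between 230.4 and 256 kb otherwise. Regions of at least 2 kb, regions within 5 kb joined, and leaving out split regions (added later) changed no count. No paired analysis was possible because the list pools the replicates of 1 group, and no replicate could be left out. Depth is unknown, so a level of H3K9me3 too low to be called cannot be told from none.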
